A study of Mus musculus with 6 samples.

Results

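Cyba encodes p22phox, the membrane partner of the NADPH oxidases, and it was on in the mouse melanoma line B16-F1 and listed at 0 in its lymph node metastatic variant B16-F1R2. The genes described are Cyba, its oxidase partner Nox4 and the antioxidant genes Nqo1, Hmox1, Gclc, Gclm, Txnrd1, Srxn1, Prdx1 and Ephx1, most of them known targets of the transcription factor NRF2, taken by symbol from the table of gene expression. They are 10 of 23951 genes in the table, and 9 of them are among the 11379 genes that reached 1 FPKM (fragments per kilobase, reads scaled by transcript length and by library size) in at least 2 libraries and were tested. Cyba was chosen by its measured loss, that is by its FPKM in B16-F1R2 and B16-F1, so these values are given as a description with no test. The other members were chosen for their function, with earlier results of these data known.

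RNA of 3 untreated cell lines was sequenced, with 2 libraries each. B16-F1 is the parental line of low metastatic potential, bought from a cell repository. B16-F1R2 was derived from a lymph node metastasis, and B16-F1R2L, according to the labels, from a metastasis in the lung that arose from a lymph node metastasis. Both variants were given by a different laboratory, and the effect of that source cannot be told apart from that of the line. All lines grew in high glucose DMEM with serum. Whether each library had a culture of its own is not stated, so the p-values below measure the spread between libraries, which may be technical. The values are the authors' FPKM on mm9. They were taken to log2(FPKM + 0.1) and compared with limma, a linear model that shares its estimate of the spread over all tested genes and all 6 libraries, with Benjamini-Hochberg adjustment. Fold changes of genes with low values come out too small on this scale.

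NADPH oxidases are membrane enzymes that move electrons from NADPH to oxygen and so produce superoxide and hydrogen peroxide. Most of the NOX enzymes need p22phox to be stable in the membrane. Cells meet such oxidants with glutathione, thioredoxin and peroxiredoxins, whose genes NRF2 switches on through the antioxidant response element (ARE) once it escapes the adaptor KEAP1. In pigment cells, melanin synthesis is a further source of oxidants.

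The depth, estimated from the FPKM steps of low genes with a lone annotated transcript, was 12200000 to 14000000 reads per library, and the table holds no read totals. Within a line, libraries differed over all tested genes by a median of 0.067 to 0.095 on the log2 scale. All 8 melanocyte markers examined reached 1 FPKM, with summed levels of 15338 to 15387 FPKM in B16-F1, 8070 to 8296 in B16-F1R2 and 9092 to 9107 in B16-F1R2L. The summed level of 8 leukocyte markers was 1.17 to 1.92 FPKM in B16-F1, 2.94 to 5.54 in B16-F1R2 and 5.20 to 7.20 in B16-F1R2L. Of these 8, 4 were at 0 in every library, Ptprc among them, and 2 reached 1 FPKM in at least 1 library. The summed level of 5 fibroblast markers was 0.962 to 1.19, 18.1 to 18.3 and 4.49 to 4.65 FPKM in the same order. Dcn and Lum were at 0 throughout, and 2 of the 5 reached 1 FPKM in at least 1 library. For 5 endothelial markers it was 1.63 to 1.66, 1.55 to 1.72 and 2.25 to 2.38 FPKM, and for 5 epithelial markers it did not exceed 0.662 FPKM. The part of these markers in the results below was not tested. In bulk RNA, fewer cells that express a gene and less RNA per cell cannot be told apart.

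**Figure D1:**
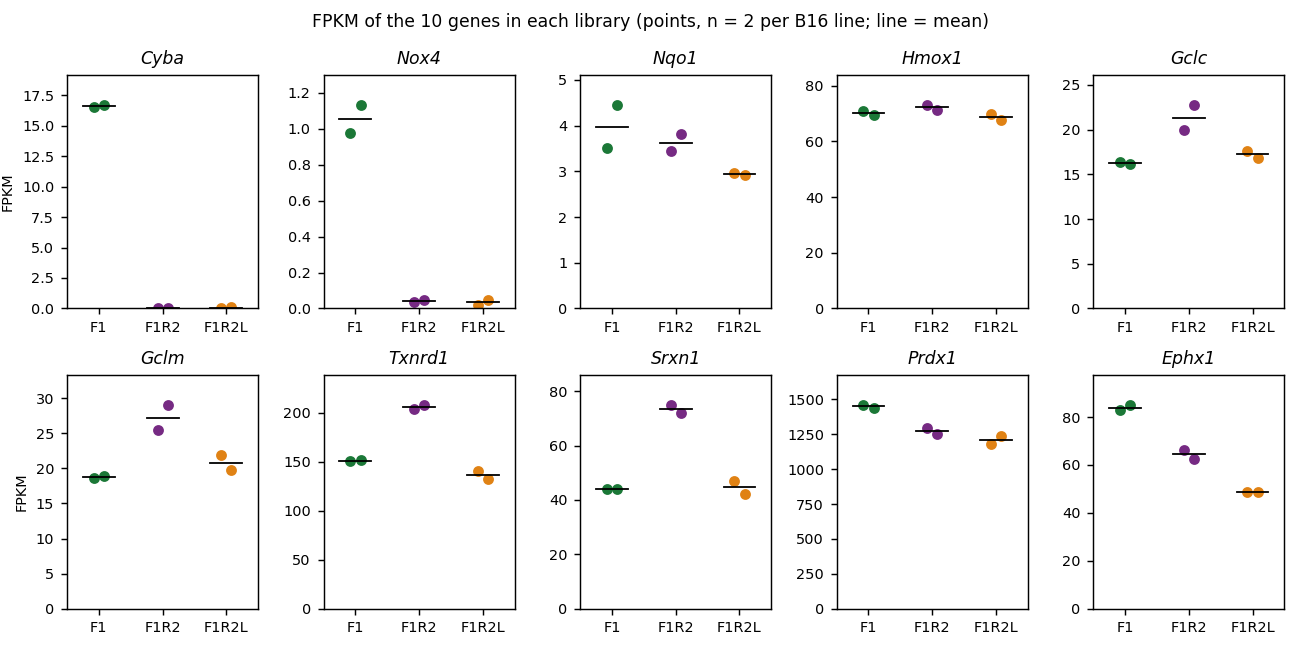
FPKM (vertical axes, starting at 0) of the 10 genes in the 2 libraries of each line (points), with the mean of the line as a bar. Cyba and Nox4 lie near 0 in both variant lines, while Gclc, Gclm, Txnrd1 and Srxn1 are highest in B16-F1R2.

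Cyba had 16.6 FPKM in replicate 1 and 16.7 in replicate 2 of B16-F1, which places it above 79.2% of all genes in that line. It was at 0 in replicates 1 and 2 of B16-F1R2 and in replicate 1 of B16-F1R2L, and replicate 2 of B16-F1R2L held 0.129 FPKM. The B16-F1 libraries do not overlap with those of either variant. At the 758 bases of its longest transcript, 1 read is worth about 0.0939 to 0.108 FPKM, so the B16-F1 values stand for about 158.6 and 154.5 reads and the value of 0.129 for about 1.4. A count of 0 would still allow a level of up to 0.285 to 0.307 FPKM in the B16-F1R2 libraries, the level of 3 reads, and this limit covers counting error only. An exact 0 in FPKM can also be a failed estimate, and this was not tested for Cyba. Of 15 housekeeping genes looked at, 0 were at 0 in any library, which cannot tell whether the estimate failed for a single gene such as Cyba. No fold change is given for Cyba. Of the 6411 tested genes at 10 FPKM or more in both B16-F1 libraries, 3 were listed at 0 in both B16-F1R2 libraries, namely Cyba and the microRNA genes Mir1249 and Mir1982, the last pair chosen after their values were seen.

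Cyba lies on the minus strand of chromosome 8 of mm9 (NCBIM37) from 124948672 to 124956840, with 2 annotated transcripts, the longer of 6 exons. Its exons are overlapped by no other gene, and 0 of its 758 stretches of 50 bases occurs elsewhere in the genome, so no exact read of it has a further place to align. Its promoter window is shown because Cyba is the gene that was off in the variants. The window runs from 250 bases before to 50 bases after the start of transcription in RefSeq (chr8:122432891-122433190, minus strand of GRCm38.p6, another build than that of the FPKM table), and holds none of the ARE core motifs searched for below, so no base is in capitals:
Cyba: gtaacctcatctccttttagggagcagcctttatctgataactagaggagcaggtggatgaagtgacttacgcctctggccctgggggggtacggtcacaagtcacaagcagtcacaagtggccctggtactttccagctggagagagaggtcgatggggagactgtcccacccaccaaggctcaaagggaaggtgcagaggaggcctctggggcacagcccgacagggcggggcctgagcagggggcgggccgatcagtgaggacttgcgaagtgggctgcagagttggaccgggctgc

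The tested neighbours of Cyba were not lost with it. Of the 10 tested neighbours, 5 to either side, 2 were higher and 2 lower in B16-F1R2 when compared with B16-F1, where 55.4% of all tested genes were called, 28.2% higher and 27.2% lower, and their median log2 fold change was 0.04. Zc3h18, which encodes a zinc finger protein of RNA processing and ends 7413 bases from Cyba, had 32.9 and 34.0 FPKM in the parental libraries and 33.7 and 33.2 in those of B16-F1R2. Mvd, the mevalonate diphosphate decarboxylase of cholesterol synthesis, lies 656 bases beyond Cyba on the other side, with its 3′ end nearest. It had 42.0 and 42.7 FPKM in the B16-F1 libraries, 20.2 and 19.4 in those of B16-F1R2 and 23.6 and 22 in those of B16-F1R2L. Its libraries do not overlap between B16-F1 and the variants, and the log2 fold change in B16-F1R2 was -1.09 (SE 0.05, adjusted p = 1.99e-05 from limma). The next tested gene, the ubiquitin ligase gene Rnf166, was lower as well, by -0.46 on that scale (adjusted p = 0.000689 from limma), while the transcriptional cofactor gene Zfpm1 and Aprt, the adenine salvage enzyme, were higher, with 0.52 (adjusted p = 0.0092) and 0.91 (adjusted p = 8.0e-05). The 5 untested genes in the same stretch stayed under 0.71 FPKM in every library. Among them is Il17c, the gene next to Cyba, named with its values known. Il17c had 0.194 and 0.203 FPKM in the parental libraries and 0 and 0.707 in those of B16-F1R2.

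**Figure D2:**
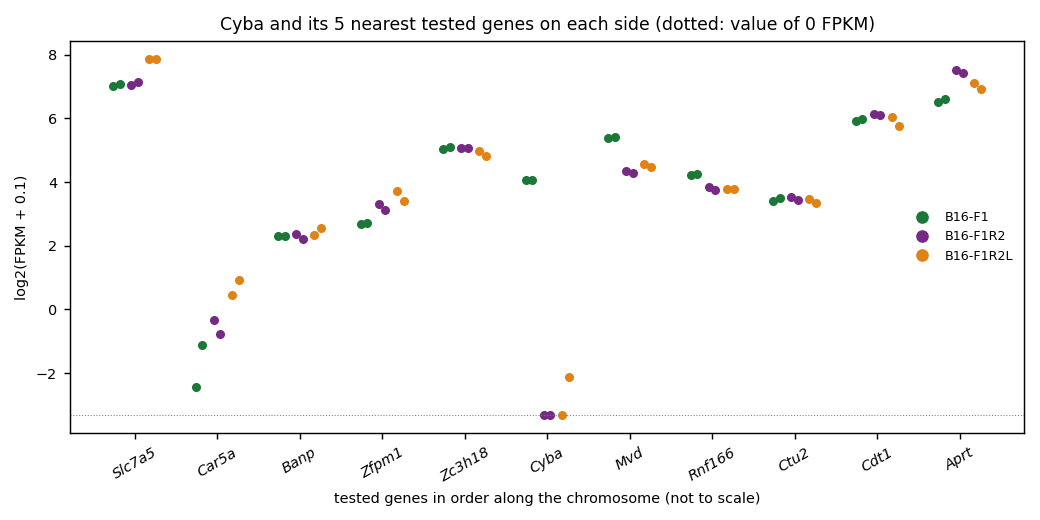
Level as log2(FPKM + 0.1) (vertical axis) in the 2 libraries of each line for Cyba and its 5 tested neighbours to either side, in their order along chromosome 8. Cyba drops to the line of 0 FPKM in both B16-F1R2 libraries, and Mvd beside it is lower in both variants but still at 19.4 FPKM or more.

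The tested genes whose levels over the 6 libraries lay nearest to those of Cyba, by Euclidean distance on the log2(FPKM + 0.1) scale and with small RNA genes left out, were Dkk3 at a distance of 1.24, Ubqln2 at 1.87, N4bp3 at 2.22, Pet2 at 2.31 and Sdk1 at 2.73. Dkk3, a secreted protein of the Dickkopf family, had 13.7 and 13.5 FPKM in the B16-F1 libraries, 0.0226 and 0.0645 in those of B16-F1R2 and 0.0696 and 0.208 in those of B16-F1R2L. Ubqln2, N4bp3 and Pet2 were listed at 0 in both B16-F1R2 libraries, as Cyba was.

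Nox4, the catalytic subunit that with p22phox releases hydrogen peroxide without cytosolic activators, was low in every line and lowest in the variants. It had 0.979 and 1.13 FPKM in the B16-F1 libraries, 0.0335 and 0.0483 in those of B16-F1R2 and 0.0178 and 0.0499 in those of B16-F1R2L. The B16-F1 libraries lie above all others, and the variants overlap. At its transcript length the values stand for about 46.4 and 51.9 reads in B16-F1 and for 0.9 to 2.6 reads in the other libraries. Nox4 fell just outside the filter, with 1 library at 1 FPKM, and was not tested. With no filter on low values, the fitted log2 fold changes, which depend on the pseudocount, were -3.04 in B16-F1R2 and -3.12 in B16-F1R2L, with adjusted p of 4.5e-04 and 4.0e-04 from limma. Nox4 lies on chromosome 7 of mm9 from 94394606 to 94547220, and none of its stretches of 50 bases occurs elsewhere.

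The other oxidase components were read from a list written from general knowledge of the pathway. Of its 16 symbols 15 are in the table, and 5 were tested, of which 1 was higher and 2 were lower in B16-F1R2 (60% called, beside 55.4% of all tested genes). Cybb, the phagocyte oxidase subunit that pairs with p22phox, was at 0 in every library, as were Nox3, Noxa1, Ncf4, Duox2 and Duoxa2. Nox1, a catalytic subunit of epithelia, had 1.58 and 1.04 FPKM in the B16-F1 libraries, 1.46 and 1.75 in those of B16-F1R2 and 0.956 and 1.14 in those of B16-F1R2L, and B16-F1 overlaps with both variants. Rac1, the small GTPase that activates NOX enzymes, fell from 205 and 202 to 144 and 150 FPKM (log2 fold change -0.47, SE 0.05, adjusted p = 2.6e-04 from limma), with 18.5% of its stretches of 50 bases also found elsewhere in the genome, so its reads may be shared. The blood cell form Rac2 rose at a low level, from 0.226 and 0.212 FPKM in the parental libraries to 1.19 and 1.38 in those of B16-F1R2 and 3.0 and 3.08 in B16-F1R2L (log2 fold change 2.12, SE 0.17, adjusted p = 1.3e-04 in B16-F1R2). Beside it, the summed leukocyte markers went from at most 1.92 to at least 2.94 FPKM, and their part was not tested. BC017643, the chaperone gene of the oxidase known as Eros, had 17.7 and 18.6 FPKM in the parental libraries and 17.8 and 18.7 in those of B16-F1R2. Its B16-F1R2L libraries, at 15.6 and 15.7 FPKM, lie below the other 4. The remaining components did not exceed 1.03 FPKM, namely Noxo1, Ncf1, Duox1 and Duoxa1.

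The question for the antioxidant genes was whether they differed between the lines in which Cyba was on and off. In B16-F1R2 against B16-F1, 6 of the 8 members tested other than Cyba were called at an adjusted p under 0.05, 4 higher and 2 lower. Of all tested genes 55.4% were called in this comparison, 28.2% higher and 27.2% lower. The comparison is the one that chose Cyba, so nothing is read from the count. None of these 8 had a log2 fold change of 1 or more in size, which 10.1% of all tested genes had together with an adjusted p under 0.05. In B16-F1R2L against B16-F1, 4 of the 8 were called, with 0 higher and 4 lower, where 56.7% of all tested genes were called, 29.5% higher and 27.1% lower. This count fell to 1 without replicate 2 of B16-F1 and to 2 without replicate 1 of B16-F1 or replicate 2 of B16-F1R2L. In B16-F1R2L against B16-F1R2, a comparison the choice of Cyba did not use, 5 of the 8 were called and all 5 were lower, where 22.6% of all tested genes were called, 12.1% higher and 10.5% lower. This count fell to 3 without replicate 1 or 2 of B16-F1, replicate 2 of B16-F1R2 or replicate 2 of B16-F1R2L. At a log2 fold change of 1 or more in size, 0 of the 8 were called in either comparison, where 10.7% and 1.23% of all tested genes were. The 3 comparisons share libraries in pairs, so they are given side by side. The median log2 fold change of the 8 members other than Cyba was 0.21, -0.09 and -0.34 in the 3 comparisons in this order, and over all tested genes it was 0.005, 0.017 and 0.022.

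**Figure D3:**
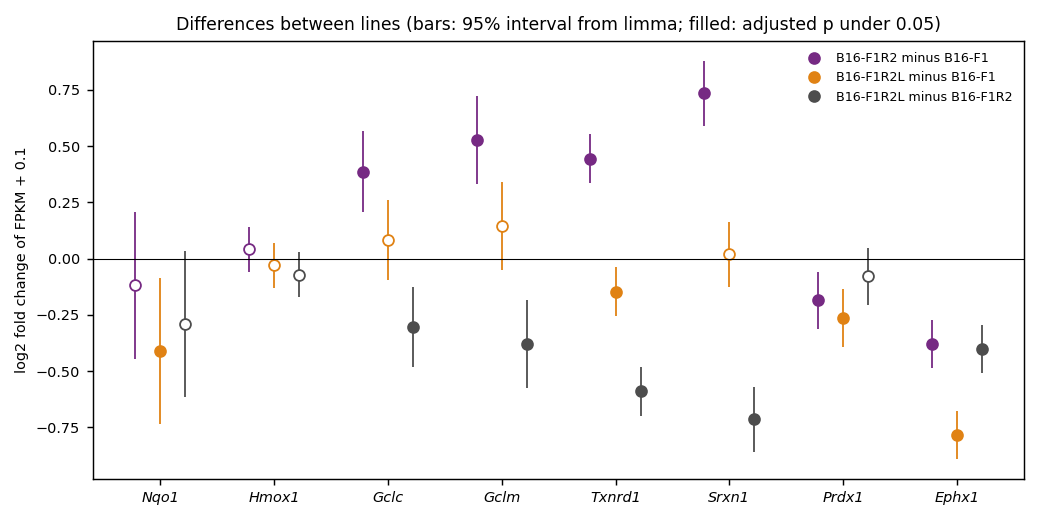
Log2 fold change on the log2(FPKM + 0.1) scale (vertical axis) of the 8 tested members other than Cyba in the 3 comparisons, with 95% intervals from limma and filled points at an adjusted p under 0.05. Gclc, Gclm, Txnrd1 and Srxn1 are above 0 for B16-F1R2 against B16-F1 and below 0 for B16-F1R2L against B16-F1R2, and Ephx1 is below 0 in all 3.

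Gclc and Gclm encode the catalytic and the modifier subunit of glutamate-cysteine ligase, the rate-limiting enzyme of glutathione synthesis, and both were highest in B16-F1R2. On mm9, Gclc lies on chromosome 9 from 77602342 to 77642292 and Gclm on chromosome 3 from 121948475 to 121972902. Gclc had 16.3 and 16.2 FPKM in the B16-F1 libraries, 19.9 and 22.7 in those of B16-F1R2 and 17.6 and 16.8 in those of B16-F1R2L. Gclm had 18.7 and 18.9 FPKM in the B16-F1 libraries, 25.4 and 29.0 in those of B16-F1R2 and 21.9 and 19.7 in those of B16-F1R2L. In both genes the libraries of B16-F1R2 lie above the other 4 without overlap. Against B16-F1, Gclc rose 1.31-fold in B16-F1R2 (log2 fold change 0.39, SE 0.07, adjusted p = 0.00493 from limma) and Gclm 1.45-fold (log2 fold change 0.53, SE 0.08, adjusted p = 0.00204). B16-F1R2L differed from B16-F1 by log2 fold changes of 0.08 for Gclc (95% interval -0.096 to 0.26, adjusted p = 0.374) and 0.14 for Gclm (95% interval -0.052 to 0.341, adjusted p = 0.173). Against B16-F1R2, B16-F1R2L was lower by log2 fold changes of -0.30 for Gclc (SE 0.07, adjusted p = 0.0332) and -0.38 for Gclm (SE 0.08, adjusted p = 0.0236). For Gclc the call was lost when any library except replicate 1 of B16-F1R2 was left out, with adjusted p of 0.0667 to 0.139, and for Gclm when any library except replicate 1 of B16-F1R2L was left out, with adjusted p of 0.0509 to 0.107. Rescaling the libraries to a common sum also ended both, at adjusted p of 0.158 and 0.0762. An exon of Gm17494, on the other strand, overlaps Gclm, and the counting by the authors is not stated to use strand.

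Txnrd1, the cytosolic thioredoxin reductase that keeps thioredoxin reduced, and Srxn1, the sulfiredoxin that repairs overoxidized peroxiredoxins, were also highest in B16-F1R2. On mm9, Txnrd1 lies on chromosome 10 from 82296696 to 82360469 and Srxn1 on chromosome 2 from 151931252 to 151937112. Txnrd1 had 150 and 152 FPKM in the B16-F1 libraries, 203 and 207 in those of B16-F1R2 and 141 and 132 in those of B16-F1R2L. Srxn1 had 44.1 and 43.9 FPKM in the B16-F1 libraries, 74.8 and 71.8 in those of B16-F1R2 and 47.0 and 42.3 in those of B16-F1R2L. The B16-F1R2 libraries are again apart from the other 4, and for Srxn1 the other lines overlap. Srxn1 had the largest rise of the members, 1.67-fold in B16-F1R2 (log2 fold change 0.74, SE 0.06, adjusted p = 1.37e-04 from limma), and Txnrd1 rose 1.36-fold (log2 fold change 0.44, SE 0.04, adjusted p = 3.3e-04). In B16-F1R2L both fell below their B16-F1R2 level, by log2 fold changes of -0.72 for Srxn1 (SE 0.06, adjusted p = 0.00232) and -0.59 for Txnrd1 (SE 0.04, adjusted p = 0.00172), and these 2 calls held with every library left out in turn. Between B16-F1R2L and B16-F1, Srxn1 differed by 0.02 (95% interval -0.124 to 0.164, adjusted p = 0.792; -0.057 without replicate 1 of B16-F1R2L). Txnrd1 was lower in B16-F1R2L by -0.15 (adjusted p = 0.030), a call lost without replicate 1 or replicate 2 of B16-F1 (adjusted p = 0.116 and 0.140) or without replicate 2 of B16-F1R2L (adjusted p = 0.109), and at -0.04 after rescaling to a common sum (adjusted p = 0.459).

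Prdx1, the peroxiredoxin that removes hydrogen peroxide and that thioredoxin recharges, was the most abundant member and above 99.6% of all genes in every line. It lies on chromosome 4 of mm9 from 116358149 to 116373427. It had 1456 and 1440 FPKM in the B16-F1 libraries, 1294 and 1253 in those of B16-F1R2 and 1178 and 1235 in those of B16-F1R2L. Both variants lie below B16-F1 and do not overlap with it. The log2 fold change was -0.19 in B16-F1R2 (SE 0.05, adjusted p = 0.0238 from limma), and this call was lost without replicate 1 or 2 of B16-F1 (adjusted p = 0.159 and 0.133) or replicate 2 of B16-F1R2 (adjusted p = 0.0591). In B16-F1R2L it was -0.26 (SE 0.05, adjusted p = 0.0060), lost without replicate 1 or 2 of B16-F1 (adjusted p = 0.0655 and 0.0569). The variants differed from each other by -0.08 (95% interval -0.206 to 0.0488, adjusted p = 0.316), a value that turns to 0.030 when the libraries are rescaled to a common sum and to 0.095 under quantile normalization. Of its 2714 stretches of 50 bases 8.14% also occur elsewhere in the genome.

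The members of heme, quinone and epoxide metabolism were not called higher in B16-F1R2. Ephx1, the microsomal epoxide hydrolase on chromosome 1 from 182906286 to 182951035 (mm9), had 83.1 and 84.9 FPKM in the B16-F1 libraries, 66.3 and 62.7 in those of B16-F1R2 and 48.7 and 48.8 in those of B16-F1R2L. The 3 lines are apart from each other, in falling order B16-F1, B16-F1R2, B16-F1R2L. The log2 fold change was -0.38 in B16-F1R2 against B16-F1 (SE 0.04, adjusted p = 6.32e-04 from limma), -0.78 in B16-F1R2L against B16-F1 (SE 0.04, adjusted p = 3.21e-05 from limma) and -0.40 against B16-F1R2 (SE 0.04, adjusted p = 0.00463), and all 3 calls held with every library left out in turn. Hmox1, the inducible heme oxygenase on chromosome 8 from 77617490 to 77624495 (mm9), had 71.0 and 69.3 FPKM in the B16-F1 libraries, 73.1 and 71.5 in those of B16-F1R2 and 69.8 and 67.6 in those of B16-F1R2L. B16-F1 and B16-F1R2L overlap, and no difference between lines was called. The log2 fold change was 0.04 in B16-F1R2 against B16-F1 (95% interval -0.058 to 0.142, adjusted p = 0.423), -0.03 in B16-F1R2L against B16-F1 (95% interval -0.13 to 0.0694, adjusted p = 0.556), and -0.07 between the variants (95% interval -0.172 to 0.0275, adjusted p = 0.246), and the sign of both differences of B16-F1R2L turned under rescaling and under quantile normalization. Nqo1, the quinone reductase that is a standard readout of NRF2, on chromosome 8 from 109912125 to 109927106 (mm9), was the lowest of the tested antioxidant genes, with 3.50 and 4.45 FPKM in the B16-F1 libraries, 3.45 and 3.81 in those of B16-F1R2 and 2.97 and 2.92 in those of B16-F1R2L. B16-F1 and B16-F1R2 overlap, with a log2 fold change of -0.12 (95% interval -0.446 to 0.206, adjusted p = 0.484), which becomes 0.049 without replicate 2 of B16-F1. Against B16-F1, Nqo1 was lower in B16-F1R2L (log2 fold change -0.41, SE 0.14, adjusted p = 0.039), and this call was lost when any library except replicate 1 of B16-F1 was left out, with adjusted p of 0.0564 to 0.190, and after rescaling (adjusted p = 0.117). Between the variants the log2 fold change of Nqo1 was -0.29 (95% interval -0.618 to 0.0343, adjusted p = 0.164), and -0.47 under quantile normalization (adjusted p = 0.0484).

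The promoters of the members with ARE core letters are shown because Gclm, Txnrd1 and Srxn1 moved together while Prdx1 did not. RefSeq promoter windows of GRCm38.p6 were found for 8 of the 10 members, in 10 windows, and Hmox1 and Gclc have no entry. Both strands were searched for TGACNNNGC and TGAGNNNGC, where N is any base. At least 1 match occurred in 4 of the 10 windows, those of Gclm, Srxn1 and Prdx1 and 1 of the 3 of Txnrd1, and 27.8% of all 32851 windows hold at least 1. Capitals mark the matches, on either strand, in Gclm (chr3:122245307-122245606, plus strand), the second window of Txnrd1 (chr10:82858956-82859255, plus strand), Srxn1 (chr2:152105274-152105573, plus strand) and Prdx1 (chr4:116685349-116685648, plus strand):
Gclm: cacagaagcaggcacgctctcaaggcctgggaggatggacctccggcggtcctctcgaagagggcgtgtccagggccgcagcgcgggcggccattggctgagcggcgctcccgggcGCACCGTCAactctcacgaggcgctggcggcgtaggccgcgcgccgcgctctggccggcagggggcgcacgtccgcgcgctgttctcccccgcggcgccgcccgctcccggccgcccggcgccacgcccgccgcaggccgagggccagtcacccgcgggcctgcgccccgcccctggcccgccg
Txnrd1: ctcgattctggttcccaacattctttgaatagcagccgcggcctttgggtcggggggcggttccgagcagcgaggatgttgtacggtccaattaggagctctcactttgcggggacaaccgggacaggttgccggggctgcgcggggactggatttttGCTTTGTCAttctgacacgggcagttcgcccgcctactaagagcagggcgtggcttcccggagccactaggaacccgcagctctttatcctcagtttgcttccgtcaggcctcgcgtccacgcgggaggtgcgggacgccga
Srxn1: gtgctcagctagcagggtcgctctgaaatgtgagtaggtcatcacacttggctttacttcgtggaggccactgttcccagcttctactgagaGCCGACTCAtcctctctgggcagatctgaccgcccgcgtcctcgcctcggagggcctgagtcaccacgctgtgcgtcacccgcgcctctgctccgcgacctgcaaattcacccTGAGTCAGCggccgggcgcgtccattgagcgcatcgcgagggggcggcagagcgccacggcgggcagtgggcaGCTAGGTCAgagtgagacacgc
Prdx1: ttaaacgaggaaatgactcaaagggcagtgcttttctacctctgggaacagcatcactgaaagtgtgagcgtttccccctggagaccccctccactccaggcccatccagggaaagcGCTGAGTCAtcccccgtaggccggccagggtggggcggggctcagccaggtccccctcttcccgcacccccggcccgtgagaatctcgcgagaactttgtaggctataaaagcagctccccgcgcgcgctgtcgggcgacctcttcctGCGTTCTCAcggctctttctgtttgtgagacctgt
Srxn1 holds TGAGTCAGC from 45 to 37 bases before its start, and Prdx1 holds TGACTCAGC on the other strand from 133 to 125 bases before its start. Both overlap the AP-1 letters TGANTCA, which 7.81% of all windows hold. The windows of Cyba, Nox4, Nqo1 and Ephx1 hold no match, which says only that these letters are not in these windows.

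NRF2 itself is encoded by Nfe2l2, and its RNA was lower in B16-F1R2, at 46.1 and 46.4 FPKM, than in B16-F1, at 59.4 and 55.7 (log2 fold change -0.31, SE 0.05, adjusted p = 0.00196 from limma), with 54.6 and 52.7 FPKM in B16-F1R2L. Of the 10 tested genes among 12 for NRF2 and its regulators, 2 were higher and 5 lower in B16-F1R2, or 70% called beside 55.4% of all tested genes. Keap1, the adaptor that targets NRF2 for degradation, went from 24.9 and 26.7 to 21.7 and 21.2 FPKM (log2 fold change -0.27, adjusted p = 0.0138), and lost its call without replicate 2 of B16-F1 or of B16-F1R2 (adjusted p = 0.0889 and 0.0684). Bach1, a repressor at AREs, went from 8.37 and 7.74 to 6.37 and 6.61 FPKM (log2 fold change -0.31, adjusted p = 0.0125), and lost its call without replicate 1 of B16-F1 or of B16-F1R2 (adjusted p = 0.0823 and 0.0624). Sqstm1, the autophagy receptor p62 that binds KEAP1, rose from 735 and 742 to 1073 and 1021 FPKM (log2 fold change 0.50, SE 0.06, adjusted p = 5.1e-04), with 866 and 807 in B16-F1R2L. Among the small MAF partners of NRF2, Mafg fell (log2 fold change -0.40, adjusted p = 0.00407) and Maff rose from 0.910 and 1.12 to 2.08 and 1.86 FPKM (log2 fold change 0.89, adjusted p = 0.00599), a rise of 0.47 with adjusted p = 0.0772 after quantile normalization. Nfe2l1, the relative NRF1, fell from 62.9 and 65.1 to 41.3 and 40.4 FPKM (log2 fold change -0.65, SE 0.05, adjusted p = 8.5e-05), and B16-F1R2L held 63.4 and 67.1. Cul3, Rbx1 and Mafk were not called in B16-F1R2 against B16-F1, and Mafk, at 9.65 and 9.61 FPKM in B16-F1R2L, was lower there than in B16-F1 (log2 fold change -0.36, adjusted p = 0.0031). The untested genes Bach2 and Nfe2l3 did not exceed 0.211 FPKM.

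Of 87 tested genes in 8 lists of the wider pathway, 27 rose and 34 fell from B16-F1 to B16-F1R2, which is 70.1% called, beside 55.4% of all tested genes. Their median log2 fold change was -0.03. In B16-F1R2L against B16-F1 the counts were also 27 and 34, and against B16-F1R2 they were 16 and 20, or 41.4% called beside 22.6%. These last 36 calls became 9 without replicate 2 of B16-F1R2L, 10 without replicate 1 and 19 without replicate 2 of B16-F1R2, and 23 with 1 library of B16-F1 left out, whichever it was. The split of these 2 comparisons follows the scaling. When the libraries were rescaled to a common sum, which raised the median of all tested genes to 0.12 and 0.13, the counts became 33 higher and 25 lower, and 25 higher and 8 lower.

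**Figure D4:**
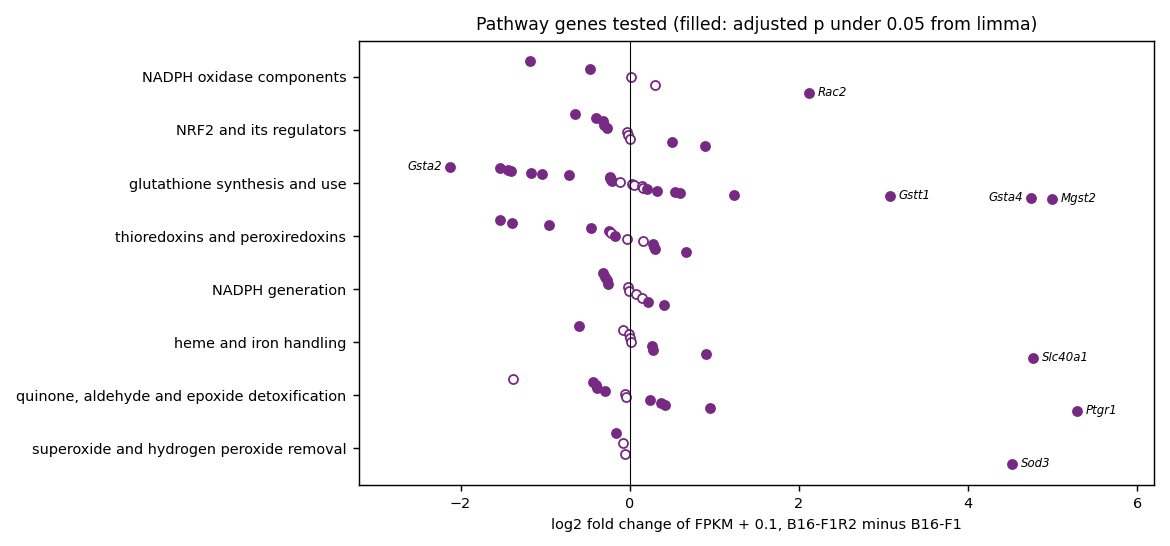
Log2 fold change on the log2(FPKM + 0.1) scale (horizontal axis), B16-F1R2 minus B16-F1, of the 87 tested genes in 8 lists of oxidase and antioxidant genes (rows), filled at an adjusted p under 0.05. Genes beyond 2 in size are named. The places of Ptgr1 and Mgst2, listed at 0 in 2 and 1 of the B16-F1 libraries, depend on the pseudocount.

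Of 24 tested genes of glutathione synthesis and use, 8 were higher and 11 lower in B16-F1R2, or 79.2% called beside 55.4% of all tested genes. Gsta4, a transferase that clears the lipid peroxidation product hydroxynonenal, rose from 1.20 and 1.63 FPKM in the parental libraries to 45.4 and 35.5 in those of B16-F1R2, with 35.1 and 37.6 in B16-F1R2L (log2 fold change 4.74, SE 0.16, adjusted p = 4.58e-06 from limma). Gstt1 rose from 0.549 and 1.27 to 8.19 and 7.56 FPKM (log2 fold change 3.08, and 2.24 to 3.62 in the other settings). The microsomal transferase gene Mgst2, at 0.413 and 0 in B16-F1, had 8.70 and 5.81 in B16-F1R2. Its log2 fold change ran from 2.77 to 6.77 in the other settings. Gstt1 and Mgst2 would not have passed the filter without the variant libraries, so their calls are not read as support. Gsta2 moved the other way, from 8.47 and 8.33 to 1.87 and 1.83 FPKM (log2 fold change -2.12, adjusted p = 3.4e-05), with 27.8% of its stretches of 50 bases also found elsewhere, so reads may be shared within its family.

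Of 13 genes of the thioredoxin and peroxiredoxin system, 4 rose and 6 fell in B16-F1R2, or 76.9% called beside 55.4% of all tested genes. The largest changes were falls of Sesn3, a stress-induced sestrin, from 15.9 and 16.1 to 5.75 and 5.20 FPKM (log2 fold change -1.53, adjusted p = 2.84e-05), and of Txnip, the inhibitor of thioredoxin, from 12.2 and 17.0 to 5.31 and 5.51 FPKM (log2 fold change -1.40, adjusted p = 7.7e-04). Sesn2 fell as well (log2 fold change -0.95, adjusted p = 1.7e-04), and Prdx6, a peroxiredoxin that acts with glutathione, rose from 90.4 and 91.5 to 146 and 142 FPKM (log2 fold change 0.66, adjusted p = 3.5e-05). Of 10 genes of NADPH generation, 2 were higher and 4 lower, a share of 60% that is near the 55.4% of all tested genes. G6pdx, which opens the pentose phosphate pathway, rose from 89.0 and 85.3 to 115 and 117 FPKM (log2 fold change 0.41, adjusted p = 3.4e-04). Idh2 and Nnt, which make NADPH in mitochondria, fell by 0.32 and 0.30 on the log2 scale (adjusted p = 0.00243 and 0.00152). Pgls, the enzyme after G6pdx, fell by 0.27 (adjusted p = 0.0236), a change not called without replicate 1 or 2 of B16-F1 (adjusted p = 0.111 and 0.0806) or replicate 2 of B16-F1R2 (adjusted p = 0.115).

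Of 9 genes of heme and iron handling, 4 were higher and 1 lower, a share of 55.6% that is near the 55.4% of all tested genes. Slc40a1, the iron exporter ferroportin, rose from 1.86 and 1.78 FPKM in the parental libraries to 49.3 and 54.8 in those of B16-F1R2, with 51.2 and 54.7 in B16-F1R2L (log2 fold change 4.77, SE 0.07, adjusted p = 2.2e-07). Blvrb, a biliverdin reductase, rose from 35.2 and 36.6 to 71.8 and 62.6 FPKM (log2 fold change 0.90, adjusted p = 1.5e-04), Hmox2, the constitutive heme oxygenase, had a log2 fold change of 0.28 (adjusted p = 0.00316), and the heme transporter gene Slc48a1 had -0.60 (adjusted p = 6.2e-05). Of 12 genes of quinone, aldehyde and epoxide detoxification, 5 were higher and 4 lower, or 75% called beside 55.4%. Ptgr1, a prostaglandin and alkenal reductase, was listed at 0 in both B16-F1 libraries and reached 3.62 and 3.97 FPKM in the libraries of B16-F1R2 and 4.0 and 4.47 in those of B16-F1R2L. The carbonyl reductase gene Cbr3 rose from 18.2 and 17.5 to 34.4 and 34.8 FPKM (log2 fold change 0.95, adjusted p = 9.6e-05) and the aldo-keto reductase gene Akr1b8 by 0.42 (adjusted p = 0.00172), while Akr1a1 fell by 0.44 on the log2 scale (adjusted p = 2.8e-04).

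Of 4 genes that remove superoxide and hydrogen peroxide, 1 was higher and 1 lower, a share of 50% that is near the 55.4% of all tested genes. Sod3, the secreted superoxide dismutase, rose from 0.256 and 0.178 FPKM in the parental libraries to 6.53 and 7.79 in those of B16-F1R2, with 3.84 and 3.46 in B16-F1R2L (log2 fold change 4.52, SE 0.17, adjusted p = 6.95e-06). Its order of lines is that of the summed fibroblast markers given above, with 0.962 to 1.19, 18.1 to 18.3 and 4.49 to 4.65 FPKM, and their part was not tested. Cat, the catalase, went from 44.6 and 44.5 to 38.7 and 40.9 FPKM (log2 fold change -0.16, adjusted p = 0.0226), and its call was lost without replicate 1 or 2 of B16-F1 (adjusted p = 0.101 and 0.0961) or replicate 1 of B16-F1R2 (adjusted p = 0.109). Sod1 and Sod2, the cytosolic and the mitochondrial superoxide dismutase, named with their values known, were not called in B16-F1R2 against B16-F1. In B16-F1R2L, Sod2 was lower than in B16-F1 (log2 fold change -0.35, adjusted p = 0.0031).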

How the data were processed

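RNA was measured in 3 mouse melanoma lines, with 2 libraries each. Per the study's methods, polyadenylated RNA was sequenced with a stranded kit in single-end reads of 50 bases, checked with FastQC 0.10.1 and aligned to NCBI37/mm9 with TopHat 2.0.10, Bowtie 1.0.0 and Samtools 0.1.1.9, with 2 mismatches and 20 multihits allowed. The authors deposited FPKM values, 1 column per library. The submitters' processing notes also name Cuffnorm and DESeq2. The gene annotation is not given in the sources used here. A count test was not used, because FPKM are not counts.

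Of all genes, those that reached 1 FPKM in 2 or more libraries entered limma 3.58.1 (R 4.3.3, eBayes with a trend) on log2(FPKM + 0.1), at an adjusted p under 0.05 (Benjamini-Hochberg, two-sided). An exact permutation test of 2 against 2 libraries cannot go below 0.333. The steps were tested on simulated data. Positions, transcript lengths and shared stretches were read from the NCBIM37 genome with its annotation, and promoter windows from RefSeq (GRCm38.p6). All other values were computed in Python 3.11.15 with pandas 2.3.3, and plots drawn with matplotlib 3.10.9.

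The members and lists were chosen with earlier results of these data known. Cyba was left out of the counts of members in the report. The alternatives' counts between the variants take in Cyba, as planned. Named genes were the members, the oxidase components (1 of them is not reported here), NRF2 and its regulators, up to 4 called genes of each other list by size of change, the 5 tested genes on each side of Cyba and the 5 nearest to its pattern. For any further gene the text says that it was picked with its values known. The alternatives tried were other pseudocounts, filters and scalings, eBayes without a trend, a fit to 4 libraries, a replicate block, a size limit of 1 on the log2 fold change, and the omission of each library in turn.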

Additional observations from a re-analysis of the deposited data

Results flagged for a closer look

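For 5 antioxidant genes the direct test between B16-F1R2L and B16-F1R2 was passed. The log2 fold changes were -0.30 for Gclc, -0.38 for Gclm, -0.59 for Txnrd1, -0.72 for Srxn1 and -0.40 for Ephx1, each lower in B16-F1R2L (adjusted p of 0.00172 to 0.0332 from limma). The calls of Gclc and Gclm were each lost in 5 of 6 fits with a library left out, and also with no filter, after rescaling, without a trend and with 4 libraries. Ephx1 was called lower than B16-F1 in both variants, by -0.38 in B16-F1R2 and -0.78 in B16-F1R2L, so by the direct test B16-F1R2L lay farther below B16-F1. For the other genes, which variant lies farther from B16-F1 was not tested.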

How the results depend on the processing

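When calls also had to reach 1 in size on the log2 scale, 0 members were called in each of the 3 comparisons, and of the pathway genes 17 were called in B16-F1R2 against B16-F1 (61 otherwise), 13 in B16-F1R2L against B16-F1 (61 otherwise) and 5 in B16-F1R2L against B16-F1R2 (36 otherwise). After rescaling to a sum of 1000000, 2 members were called in B16-F1R2L against B16-F1 (4 otherwise) and 3 against B16-F1R2 (5 otherwise). The latter count was also 3 with no filter, without a trend and with only the 4 libraries compared, and these 3 were Txnrd1, Srxn1 and Ephx1 each time. No fit with a library left out called all 5 of Gclc, Gclm, Txnrd1, Srxn1 and Ephx1 between the variants. The pathway genes called between the variants were 22 without a trend and 21 with only 4 libraries. With each library left out, the members called ran from 5 to 6 in B16-F1R2 against B16-F1, from 1 to 3 in B16-F1R2L against B16-F1 and from 3 to 5 between the variants (3 to 4 without Cyba, whose value there is 1.4 reads in a lone library and from which nothing is read), and the pathway genes from 52 to 62, 44 to 63 and 9 to 24. Signs turned for Hmox1 in B16-F1R2L, at 0.072 and 0.098 against B16-F1 and 0.036 and 0.0020 against B16-F1R2, and for Prdx1 between the variants, at 0.030 and 0.095, each under rescaling and quantile normalization. They also turned for Nqo1 in B16-F1R2, which ran from -0.29 to 0.049 with each library left out and was highest without replicate 2 of B16-F1, and for Srxn1 in B16-F1R2L against B16-F1, which ran from -0.057 without replicate 1 of B16-F1R2L to 0.0971 without replicate 2. The cause of these changes was not tested. Rescaling itself moved the median of all tested genes to 0.12 and 0.13 in the comparisons of B16-F1R2L. The calls of all tested genes between the variants, 2568, became 140 with the minimum fold change, 1666 with no filter and 1518 with 4 libraries, and 437 and 539 without replicate 1 of B16-F1R2 and replicate 2 of B16-F1R2L. Against B16-F1 the minimum fold change left 1147 of 6305 and 1216 of 6447.

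The replicate numbers are those of the labels, which do not say what they pair, and deviations of same-numbered libraries correlated at 0.052, -0.10 and 0.079 between the lines. With a replicate block the members called were 6, 4 and 5, as without it, and the pathway genes 62, 61 and 32. Depth limits Cyba and Nox4 in the variants, where all values stand for fewer than 3 reads.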

Other observations

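Between the variants, the pathway genes called with a log2 fold change of 1 or more in size were all higher in B16-F1R2L. They were chosen after their values were seen. Of all 140 tested genes called at that size, 116 were higher in B16-F1R2L and 24 lower, so nothing is read from the shared direction. Chac1, a glutathione-degrading enzyme, had 9.12 and 8.34 FPKM in B16-F1R2, where the B16-F1R2L libraries held 39.1 and 36.5 and those of B16-F1 28.4 and 22.9 (log2 fold change 2.10, SE 0.11, adjusted p = 6.9e-04 from limma). Slc7a11, the cystine importer that feeds glutathione synthesis, had 1.95 and 2.55 FPKM in B16-F1R2 against 5.11 and 6.29 in B16-F1R2L and 5.62 and 4.70 in B16-F1 (log2 fold change 1.31, SE 0.17, adjusted p = 0.00752), a call lost without replicate 2 of B16-F1R2L (adjusted p = 0.0503). Sesn2 and Txnip differed by 1.54 and 1.63 (adjusted p = 7.0e-04 and 0.0040). Rac2 differed by 1.18 (adjusted p = 0.00881), which did not pass without replicate 1 of B16-F1R2 (adjusted p = 0.0587) or replicate 2 of B16-F1R2L (adjusted p = 0.0559). These 5 genes had the other direction from Gclc, Gclm, Txnrd1 and Srxn1, which were lower in B16-F1R2L.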
